A study of Mus musculus with 9 samples.

Results

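The 10 genes described here, Lpl, Gpihbp1, Angptl4, Pnpla2, Abhd5, G0s2, Lipe, Mgll, Aqp7 and Gpd1, release fatty acids from triglyceride or handle the glycerol that is left, and were taken by symbol from a table of 18738 genes. All 10 were found and all 10 passed the filter on low values (1 TPM or more on average), so that each was among the 13655 genes tested. RNA-seq was run on cardiomyocytes, the contractile cells of the heart, taken on the day of birth (P0) from wild-type C57BL/6J pups. Their mothers had been randomly given 1 of 3 diets throughout pregnancy, labelled normal (ND), slight high-fat (sHFD) and high-fat (HFD), and each diet has 3 libraries. What the diets contained, and whether the libraries of a diet came from separate litters, is not given in the sources used here, so the spread between libraries may be technical. TPM, the unit of the table, is scaled for transcript length and to the same library total, and it keeps no read depth.

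Triglyceride reaches the heart muscle cell by separate routes. In the capillary, lipoprotein lipase (Lpl) cuts it out of circulating lipoproteins while held on the endothelial surface by Gpihbp1, and the secreted protein Angptl4 inactivates the lipase. Inside the cell, stored triglyceride is cut in turn by adipose triglyceride lipase (Pnpla2), hormone-sensitive lipase (Lipe) and monoacylglycerol lipase (Mgll), with Abhd5 as the activator and G0s2 as the inhibitor of Pnpla2. The glycerol that remains crosses the membrane through aquaporins such as Aqp7, and the cytosolic dehydrogenase Gpd1 links glycerol-3-phosphate to glycolysis. Several of these genes, Angptl4 foremost, are known targets of the fatty-acid-sensing PPAR nuclear receptors.

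After HFD, the mRNA of the glycerol channel, the inhibitor of lipoprotein lipase and hormone-sensitive lipase was far lower than after ND. That of the lipases Lpl and Pnpla2 was not. Aqp7 stood at 12.5%, Angptl4 at 27.3%, G0s2 at 44.6%, Lipe at 44.5% and Gpd1 at 53.4% of their ND means. These 5 of the 10 genes fell at an adjusted p under 0.05 and 0 rose, beside 9.59% of all genes tested that fell (limma over the 3 diets, Benjamini-Hochberg over 13655 genes). Against sHFD, Abhd5 and Mgll fell as well, making 7 of 10, where 23.9% of all genes fell. Between sHFD and ND none of the 10 passed limma's test, and 0.00732% of all genes did. At an unadjusted p under 0.05 there were 3 of the 10, beside 7.36% of all genes.

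**Figure D1:**
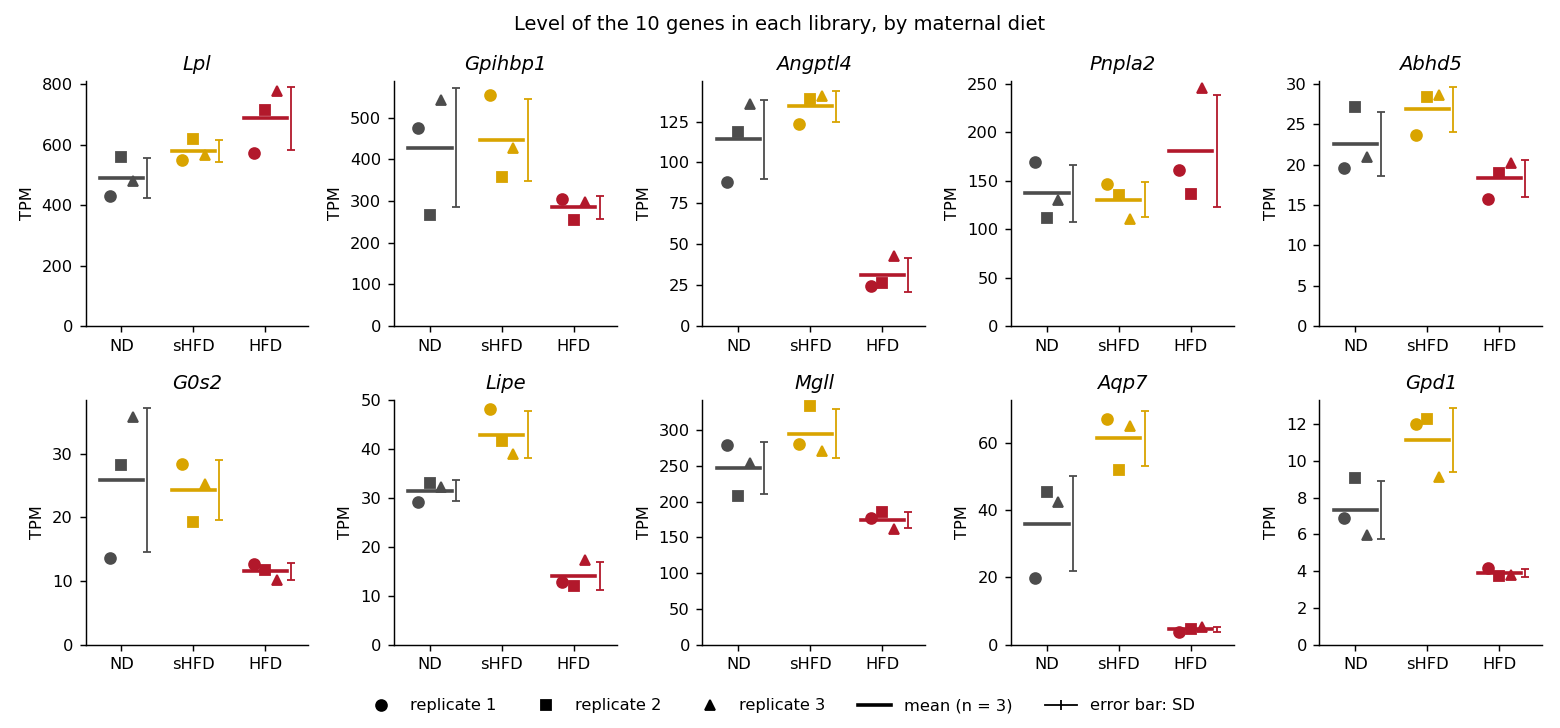
Level of each of the 10 genes in TPM (y axis, from 0) in the 9 libraries, by maternal diet (x axis). Symbols are libraries, thick bars the mean of 3 and error bars the SD. The HFD libraries lie below all others for Aqp7 (3.68 to 5.27 TPM), Angptl4, Lipe, G0s2, Gpd1 and Mgll, and reach the highest values for Lpl and Pnpla2.

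Lpl had the highest mean of the 10 in each diet. In descending order of the ND mean came Lpl (489 TPM), Gpihbp1 (428 TPM), Mgll (247 TPM), Pnpla2 (137 TPM), Angptl4 (114 TPM), Aqp7 (36.0 TPM), Lipe (31.5 TPM), G0s2 (25.9 TPM), Abhd5 (22.6 TPM) and Gpd1 (7.31 TPM). In ND the ranges of libraries overlapped between each neighbouring pair in this order except Mgll and Pnpla2, Angptl4 and Aqp7, and Abhd5 and Gpd1. In the HFD libraries Aqp7 had moved down to ninth place, where its range overlapped that of Gpd1, the lowest. Pnpla2 and Mgll, which did not overlap in ND, did so in HFD, at means of 181 and 175 TPM.

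Among the genes of intravascular lipolysis, Angptl4 lies on chromosome 17 (33774900 to 33781575, minus strand, as 1-based GRCm38 positions, which are used throughout). It was at 24.3, 26.1 and 43.0 TPM in the HFD libraries, against 88.1, 119 and 136 TPM in the ND libraries, and at 124, 139 and 140 TPM in the sHFD libraries. Every HFD library was below every library of the other diets, and sHFD and ND overlapped. The difference in log2(TPM + 1) was -1.87 for HFD vs ND (SE 0.22, limma adjusted p = 0.00139) and -2.12 for HFD vs sHFD (SE 0.22, adjusted p = 0.000401). For sHFD vs ND it was 0.25, with a 95% interval from -0.22 to 0.72.

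Lpl itself (chromosome 8, 68880555 to 68906932) was at 574, 714 and 777 TPM in the HFD libraries, against 429, 559 and 479 TPM in the ND libraries, and at 549, 619 and 566 TPM in the sHFD libraries. The HFD libraries all lay above the ND libraries and overlapped those of sHFD. Its log2 difference for HFD vs ND, 0.49 (SE 0.17), missed the threshold (limma adjusted p = 0.0746). With each library scaled to a common median ratio it was 0.65 and passed (adjusted p = 0.0267). For HFD vs sHFD it was 0.24, with a 95% interval from -0.12 to 0.60. Relative to Lpl mRNA, Angptl4 mRNA was lower in HFD. The ratio of Angptl4 to Lpl was 0.0448 ± 0.0096 in HFD and 0.234 ± 0.043 in ND (SD, n = 3 each), and 0.233 ± 0.014 in sHFD.

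Gpihbp1, which carries the lipase across the capillary wall and anchors it there (chromosome 15, 75596630 to 75598213), was at 304, 254 and 296 TPM in the HFD libraries, against 475, 267 and 543 TPM in the ND libraries. It was at 554, 358 and 428 TPM in the sHFD libraries. ND replicate 2 was as low as the HFD libraries, and the sHFD libraries were all above them. The log2 difference for HFD vs ND was -0.53 (SE 0.24, limma adjusted p = 0.164) and that for HFD vs sHFD -0.63 (SE 0.24, adjusted p = 0.0608). Without ND replicate 2 both passed, at adjusted p of 0.0328 and 0.0126. Gpihbp1 is a gene of capillary endothelium. Of 16 endothelial markers 2 fell in HFD vs ND, beside 9.59% of all genes. They were the transcription factor genes Erg and Sox18 (log2 -1.06 and -1.22, limma adjusted p = 0.0148 and 0.00938). The list's median was -0.15, and that of all genes -0.14. In HFD vs sHFD 3 of the 16 fell, beside 23.9% of all genes, with a list median of 0.013 and -0.16 for all genes. The summed level of those 16 markers ran from 4994 to 5550 TPM in HFD, from 4691 to 5282 TPM in sHFD and from 4705 to 6814 TPM in ND. The part of the endothelial share in the level of Gpihbp1 was not tested. In these bulk libraries fewer cells of a type and less RNA per cell cannot be told apart.

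Of the genes of intracellular lipolysis, Lipe (chromosome 7, 25379527 to 25398486, minus strand) was at 12.8, 12 and 17.3 TPM in the HFD libraries, against 29.2, 33.1 and 32.3 TPM in the ND libraries. In the sHFD libraries it was at 48.3, 41.6 and 38.9 TPM. The diets did not overlap with each other. Lipe fell in HFD vs ND (log2 -1.13, SE 0.18, limma adjusted p = 0.00755) and in HFD vs sHFD (log2 -1.56, SE 0.18, adjusted p = 0.000531). The first of these calls was lost without ND replicate 3 (adjusted p = 0.0553) and without HFD replicate 2 (adjusted p = 0.0563). Its sHFD vs ND difference of 0.43 (SE 0.18) had an unadjusted p of 0.0315 and an adjusted p of 0.672.

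Pnpla2, which makes the first cut in stored triglyceride (chromosome 7, 141455188 to 141460743), was at 161, 136 and 246 TPM in the HFD libraries, against 169, 112 and 130 TPM in the ND libraries. The sHFD libraries held 146, 135 and 110 TPM. HFD replicate 3 was the highest of the 9, and the diets overlapped in each pair. The log2 difference was 0.38 for HFD vs ND (SE 0.22, limma adjusted p = 0.274, 95% interval -0.10 to 0.85) and 0.43 for HFD vs sHFD (SE 0.22, adjusted p = 0.146).

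G0s2, an inhibitor of Pnpla2 (chromosome 1, 193272160 to 193273188, minus strand), was at 12.7, 11.8 and 10.1 TPM in the HFD libraries, against 13.6, 28.2 and 35.9 TPM in the ND libraries. The sHFD libraries held 28.5, 19.3 and 25.2 TPM. ND replicate 1 was close to the HFD range, and the other libraries of ND and sHFD were well above it. G0s2 fell in HFD vs ND (log2 -1.003, SE 0.29, limma adjusted p = 0.0433) and in HFD vs sHFD (log2 -1.003, SE 0.29, adjusted p = 0.0184). The HFD vs ND call held in 1 of the 9 fits that leave out a library, the one without ND replicate 1 (adjusted p = 0.00108), and gave adjusted p of 0.0535 to 0.182 in the other 8. It was also lost under median-ratio scaling, where libraries are scaled by the median ratio of their genes (adjusted p = 0.0829), and under quantile normalization (0.118). A pseudocount of 5 (0.0512), no filter on low values (0.0883), only the 2 diets compared (0.085) and the replicate block (0.0505) ended it too. The call against ND thus held in 4 of the 18 alternatives. Of the 9 fits that leave out a library, 5 kept the call against sHFD. That call was lost without sHFD replicate 1 or 3 and HFD replicate 2 or 3 (adjusted p = 0.0704, 0.0583, 0.0516 and 0.0559), and under quantile normalization (adjusted p = 0.085). G0s2 overlaps Lamb3, a laminin gene on the opposite strand, and the sources used here do not say whether counting used strand; Lamb3 was at 10.7 to 14.1 TPM in HFD and 10.6 to 11.3 TPM in ND.

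Abhd5, the activator (chromosome 9, 122351616 to 122381524), was at 15.8, 18.9 and 20.2 TPM in the HFD libraries, against 19.6, 27.1 and 21.0 TPM in the ND libraries. The sHFD libraries held 23.6, 28.3 and 28.6 TPM, all above the HFD libraries. It fell in HFD vs sHFD (log2 -0.53, SE 0.18, limma adjusted p = 0.0401) and missed the threshold in HFD vs ND (log2 -0.28, SE 0.18, adjusted p = 0.323). The call against sHFD was lost when libraries were scaled by their median ratio (adjusted p = 0.0595) or quantile-normalized (adjusted p = 0.082), and with no filter on low values (0.0512), and it held in 3 of the 9 fits that leave out a library. It was lost without ND replicate 3 (adjusted p = 0.0536), without sHFD replicates 1, 2 or 3 (0.0556, 0.102 and 0.125) and without HFD replicates 1 or 2 (0.139 and 0.092).

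Mgll, which frees the last fatty acid from glycerol (chromosome 6, 88724412 to 88828360), was at 177, 185 and 162 TPM in the HFD libraries, against 280, 207 and 254 TPM in the ND libraries. The sHFD libraries held 281, 334 and 271 TPM. Every HFD library was below every other library. Mgll fell in HFD vs sHFD (log2 -0.75, SE 0.16, limma adjusted p = 0.00441), and in HFD vs ND it missed the threshold (log2 -0.49, SE 0.16, adjusted p = 0.0625). Quantile normalization or leaving out ND replicate 2 brought the second under it (adjusted p = 0.0494 and 0.0497).

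Of the genes of glycerol handling, Aqp7 (chromosome 4, 41033074 to 41048237, minus strand) had the largest change of the 10. It was at 3.68, 4.57 and 5.27 TPM in the HFD libraries, against 19.9, 45.6 and 42.6 TPM in the ND libraries. In the sHFD libraries it was at 67.1, 51.9 and 65.2 TPM. The diets did not overlap, and ND replicate 1 was the lowest library outside HFD. Aqp7 fell in HFD vs ND (difference in log2(TPM + 1) -2.67, SE 0.27, limma adjusted p = 0.000795) and in HFD vs sHFD (-3.50, SE 0.27, adjusted p = 4.54e-05), and stood in HFD at 7.34% of the sHFD mean. Its sHFD vs ND difference was 0.83 (SE 0.27, unadjusted p = 0.00866, adjusted p = 0.67), higher in all 3 sHFD libraries. Both HFD calls held in each of the 18 alternatives computed.

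Gpd1 (chromosome 15, 99717587 to 99725014), the least abundant of the 10, was at 4.17, 3.75 and 3.79 TPM in the HFD libraries, against 6.88, 9.06 and 5.98 TPM in the ND libraries. The sHFD libraries held 12, 12.3 and 9.13 TPM. The diets did not overlap. It fell in HFD vs ND (log2 -0.74, SE 0.21, limma adjusted p = 0.0385) and in HFD vs sHFD (log2 -1.30, SE 0.21, adjusted p = 0.00153). The second call held in all 18 alternatives, and the first in 7, with adjusted p of 0.0227 to 0.154. Quantile normalization ended the first (adjusted p = 0.154). Of the fits that leave out a library 2 kept it, those without ND replicate 1 or sHFD replicate 2, and it was lost in the other 7 (adjusted p = 0.0565 to 0.145).

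**Figure D2:**
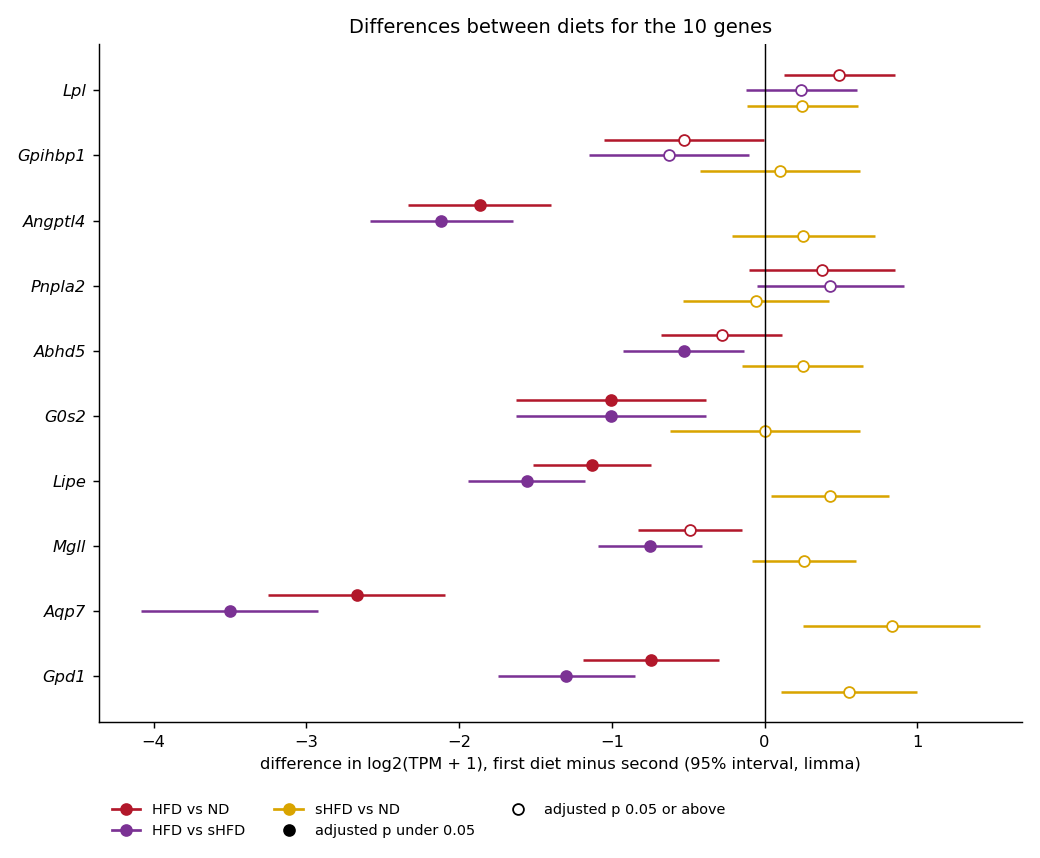
Difference in log2(TPM + 1) between diets (x axis, first diet minus second) for the 10 genes (y axis), with 95% intervals from limma; filled points passed an adjusted p of 0.05. Aqp7, Angptl4 and Lipe lie farthest to the left in both comparisons of HFD, and the sHFD vs ND points lie near or above 0 with none filled.

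Read over the 10 genes, the median log2 difference was -0.64 in HFD vs ND, where the median of all genes tested was -0.14, and -0.88 in HFD vs sHFD, where it was -0.16. In sHFD vs ND the 2 medians were 0.25 and 0.0010. The libraries of HFD and ND did not overlap in 7 of the 10 genes and in 27.9% of all genes. Those of HFD and sHFD did not overlap in 8 of the 10 and in 51.3% of all genes, and those of sHFD and ND in 3 of the 10 and in 9.4% of all genes. HFD vs ND and HFD vs sHFD share the HFD libraries, and HFD vs ND and sHFD vs ND share the ND libraries. The 10 genes, and the lists of related genes below, were chosen with earlier results of these data known. Their medians and counts beside those of all genes are therefore a description and not a test. Over all genes 175 rose and 1309 fell in HFD vs ND, and 670 and 993 under median-ratio scaling, which brought the median of all genes to 0.0084. Relative to the median of all genes, the HFD vs ND differences were -2.53 for Aqp7, -1.73 for Angptl4, -0.99 for Lipe, -0.87 for G0s2 and -0.61 for Gpd1, and 0.63 for Lpl. In HFD vs sHFD 1406 rose and 3259 fell, and 2600 and 2614 under that scaling.

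The count of 5 genes in HFD vs ND rested on single libraries. It was 2, Angptl4 and Aqp7, without ND replicate 3 or without HFD replicate 2. It was 3, with Lipe, without sHFD replicate 1, sHFD replicate 3, HFD replicate 1 or HFD replicate 3. Without ND replicate 1 the same 5 passed, and the differences of Aqp7 and Angptl4 were -3.04 and -2.04. In other fits the count was still 5 but the genes changed. Without ND replicate 2, Gpihbp1 and Mgll passed in place of G0s2 and Gpd1. Under median-ratio scaling Lpl, which was higher in HFD, passed in place of G0s2. Angptl4 and Aqp7 passed in all 18 alternatives.

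Ratios between the genes within a library do not depend on scaling. G0s2 to Pnpla2 was 0.0789, 0.0866 and 0.0411 in the HFD libraries, against 0.080, 0.253 and 0.277 in the ND libraries. Abhd5 to Pnpla2 was 0.107 ± 0.029 in HFD and 0.174 ± 0.064 in ND (SD, n = 3 each). For both ratios HFD overlapped ND and lay below sHFD, where the means were 0.189 ± 0.044 and 0.210 ± 0.049. The mRNA of G0s2 and that of Abhd5 were thus both lower relative to that of Pnpla2 in HFD than in sHFD libraries. Hilpda, another inhibitor of Pnpla2, went the other way and was higher in HFD than in sHFD (log2 0.56, limma adjusted p = 0.0293). The ratios are of mRNA and do not show amounts of protein or lipase activity. Lipe to Pnpla2 was 0.0793 ± 0.0088 in HFD and 0.239 ± 0.063 in ND, and 0.330 ± 0.023 in sHFD, with no overlap between diets. Mgll to Pnpla2 was 1.04 ± 0.35 in HFD and 1.82 ± 0.16 in ND, without overlap. Aqp7 to Gpd1 was 1.16 ± 0.26 in HFD and 5.01 ± 2.12 in ND, without overlap. These ratios are given as values and were not tested.

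**Figure D3:**
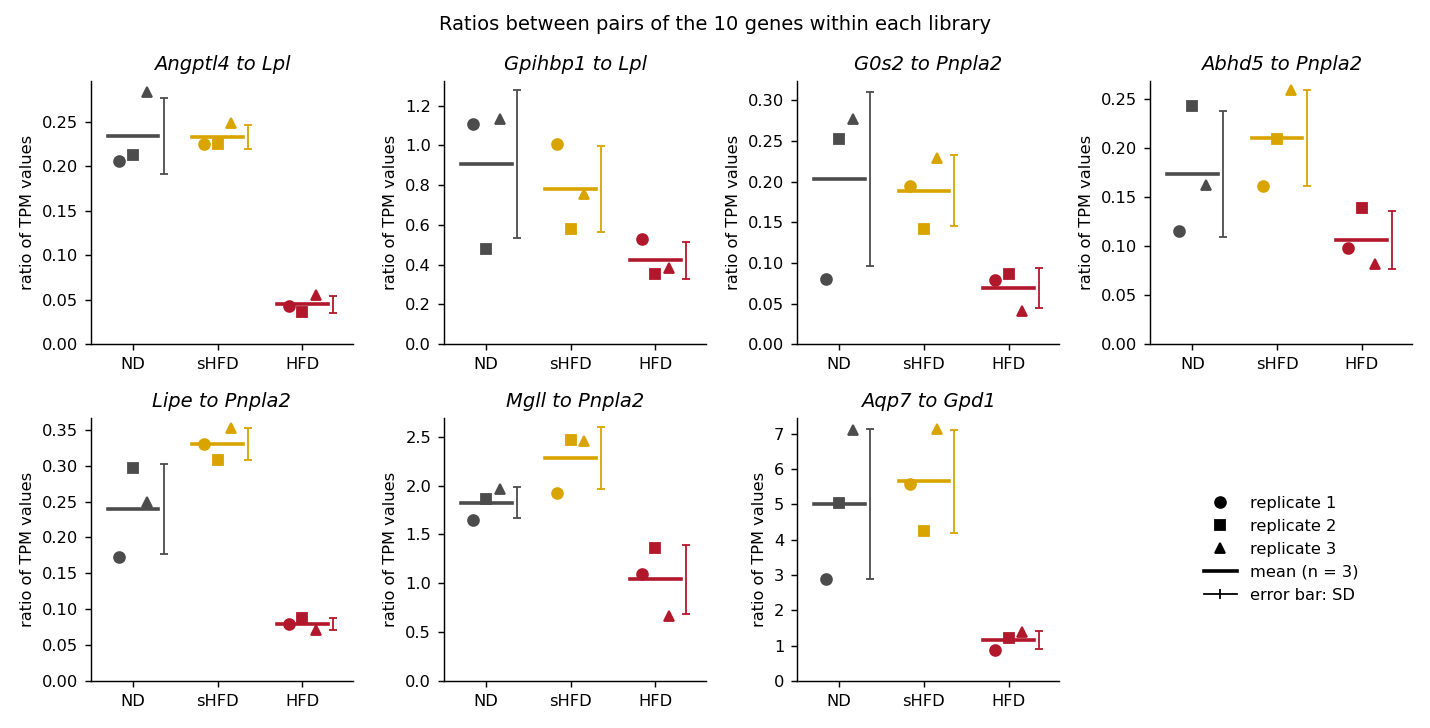
Ratios of TPM between pairs of the 10 genes within each library (y axis, from 0) by maternal diet (x axis); symbols are libraries, thick bars the mean of 3 and error bars the SD. The ratio of Angptl4 to Lpl is 0.0448 in HFD, below all ND and sHFD libraries, and that of G0s2 to Pnpla2 in ND replicate 1 lies at the HFD level.

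G0s2, Lipe, Abhd5, Mgll and Gpd1 overlap other annotated genes, of which Lamb3 alone is in the table, and strand use in counting is not stated, so their reads cannot be told apart from those of genes on the opposite strand. Mgll also overlaps 3 annotated genes on its own strand. Promoter sequence from RefSeq (GRCm38.p6, 250 bases before to 50 after a transcript start) was matched for 6 of the 10 genes, in 9 windows. Those of Aqp7 (chr4:41047913-41048212, minus strand), Lipe (chr7:25395938-25396237, minus strand) and G0s2 (chr1:193273139-193273438, minus strand) are shown because these genes fell in HFD, and that of Pnpla2 (chr7:141454938-141455237, plus strand) because it did not. Capitals mark AGGTCA, the half-site of PPAR and many other nuclear receptors, or CACGTG, the E-box, each searched on both strands.
Aqp7: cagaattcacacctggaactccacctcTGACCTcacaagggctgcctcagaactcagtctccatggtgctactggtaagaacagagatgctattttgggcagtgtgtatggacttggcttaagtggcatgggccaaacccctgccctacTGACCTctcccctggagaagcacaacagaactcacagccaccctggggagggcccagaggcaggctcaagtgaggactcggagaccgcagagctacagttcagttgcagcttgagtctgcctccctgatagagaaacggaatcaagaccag
Lipe: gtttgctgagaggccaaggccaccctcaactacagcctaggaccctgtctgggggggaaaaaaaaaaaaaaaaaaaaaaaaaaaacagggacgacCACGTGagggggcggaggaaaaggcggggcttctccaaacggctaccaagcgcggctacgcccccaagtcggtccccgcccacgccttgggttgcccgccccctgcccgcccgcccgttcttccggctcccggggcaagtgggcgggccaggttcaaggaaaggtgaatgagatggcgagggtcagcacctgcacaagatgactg
G0s2: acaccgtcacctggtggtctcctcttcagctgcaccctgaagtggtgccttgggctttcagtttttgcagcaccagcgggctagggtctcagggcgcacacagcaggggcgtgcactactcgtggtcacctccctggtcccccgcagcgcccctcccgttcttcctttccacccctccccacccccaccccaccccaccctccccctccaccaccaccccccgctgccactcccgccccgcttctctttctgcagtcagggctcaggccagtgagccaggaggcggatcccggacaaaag
Pnpla2: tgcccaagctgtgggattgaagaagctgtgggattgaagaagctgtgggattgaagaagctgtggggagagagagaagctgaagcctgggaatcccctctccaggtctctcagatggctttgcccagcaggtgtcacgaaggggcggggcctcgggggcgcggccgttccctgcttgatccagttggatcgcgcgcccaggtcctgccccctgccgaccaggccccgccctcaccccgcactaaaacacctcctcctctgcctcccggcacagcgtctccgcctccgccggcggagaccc
Aqp7 held AGGTCA 2 times in this window, both read as TGACCT on the gene's strand, and Lipe held CACGTG 1 time. G0s2 and Pnpla2 held neither. Of the genes whose windows are not shown, Abhd5 held AGGTCA 1 time and Mgll held CACGTG 1 time, and neither gene passed the test in HFD vs ND. Among the 32851 windows searched, which do not cover every gene, 16.26% held AGGTCA and 7.15% held CACGTG. The pair of AGGTCA copies with 1 base between them, the form bound by PPAR with its partner RXR, was in 0 of the 9 windows and in 0.04% of all. Lpl, Gpihbp1, Angptl4 and Gpd1 had no matched window and were not searched. A match is a run of letters and not a shown binding site, and the other window of Aqp7 overlaps the one shown and shares 1 of its AGGTCA matches. The other window of Lipe (chr7:25390063-25390362, minus strand) held neither motif, and nor did the other window of Mgll. For Aqp7 and Lipe the window with more matches is the one shown.

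Of 11 tested genes of lipoprotein lipase maturation and its cofactors, 1 fell in HFD vs ND, Lmf1, the endoplasmic reticulum factor that Lpl needs to fold. Lmf1 was at 15.2, 14.1 and 16.4 TPM in the HFD libraries, against 20.7, 22.7 and 24.4 TPM in the ND libraries (log2 -0.54, SE 0.16, limma adjusted p = 0.0494). The list's median was -0.22. Against sHFD 2 fell, Lmf1 and the convertase gene Pcsk6 (log2 -0.44), and 1 rose, the heparan sulphate proteoglycan gene Sdc4 (log2 0.87, adjusted p = 0.00359). Apoe, a lipoprotein ligand, had a difference of -0.46 in HFD vs ND (SE 0.19, adjusted p = 0.119).

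Of 15 tested genes of lipoprotein receptors and fatty acid entry, 5 fell and 1 rose in HFD vs ND. In HFD vs sHFD 8 fell and 1 rose. The list medians were -0.34 and -0.82, and of all genes 9.59% and 23.9% fell. The fatty acid transport protein genes Slc27a1, Slc27a4 and Slc27a6 fell in HFD vs ND (log2 -1.02, -0.86 and -1.02, limma adjusted p = 0.0262, 0.0223 and 0.0203). Slc27a6 was low, at 1.15, 0.9 and 1.89 TPM in the HFD libraries, against 3.01, 4.95 and 3.14 TPM in the ND libraries. Tcf15, a transcription factor gene of heart endothelium, fell to 26.5, 25.8 and 27.3 TPM in the HFD libraries, against 45.1, 49.1 and 64.7 TPM in the ND libraries (log2 -0.96, adjusted p = 0.0121). Cd36, the main fatty acid transporter of heart muscle and capillary, was at 1325, 1731 and 2020 TPM in the HFD libraries, against 1845, 1382 and 1554 TPM in the ND libraries (log2 0.08, SE 0.20, adjusted p = 0.832). Vldlr, the receptor for very-low-density lipoprotein, fell in HFD vs sHFD (log2 -1.03, adjusted p = 0.0149) and not past the threshold in HFD vs ND (log2 -0.43, adjusted p = 0.324).

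Of 20 tested genes of other lipases and the lipid droplet, 5 fell and 0 rose in HFD vs ND, where 9.59% of all genes fell. In HFD vs sHFD, where 23.9% of all genes fell, 7 of the 20 fell and 1 rose. The list medians were -0.31 and -0.41. The gene that rose was Hilpda, another inhibitor of Pnpla2, at 21.7, 22.1 and 19.4 TPM in the HFD libraries, against 15.5, 11.53 and 15.1 TPM in the sHFD libraries (log2 0.56, SE 0.18, limma adjusted p = 0.0293). Its libraries in ND were at 16.6, 14.5 and 14.1 TPM, and the HFD vs ND difference was 0.46 (SE 0.18, adjusted p = 0.106). Plin5, the perilipin that docks Pnpla2 and Abhd5 on the droplet of oxidative tissue, was at 4.04, 3.78 and 6.14 TPM in the HFD libraries, against 8.51, 21.7 and 12.5 TPM in the ND libraries. The sHFD libraries held 28.5, 27.9 and 20.8 TPM. It fell in HFD vs ND (log2 -1.36, SE 0.29, limma adjusted p = 0.0151) and in HFD vs sHFD (log2 -2.25, SE 0.29, adjusted p = 0.000789). Plin2 and Plin3, coat proteins of most cells, fell in HFD vs ND (log2 -0.59 and -0.88, adjusted p = 0.0298 and 0.0239). Plin4 and Dgat2, an enzyme of triglyceride synthesis, fell in HFD vs sHFD (log2 -1.53 and -1.44, adjusted p = 0.00217 and 0.00262) and missed the threshold in HFD vs ND (log2 -0.33 and -0.81, adjusted p = 0.438 and 0.0679).

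Of 16 tested genes of glycerol and glycerol-3-phosphate handling, 2 fell and 0 rose in HFD vs ND, where 9.59% of all genes fell. In HFD vs sHFD, where 23.9% of all genes fell, 6 of the 16 fell and 1 rose. The list medians were -0.23 and -0.38. Those that fell against ND were Agpat1 and Agpat2, acyltransferases of phosphatidic acid synthesis (log2 -1.08 and -0.83, limma adjusted p = 0.00938 and 0.0171). Agpat3, of the same family, and Pgp, a phosphatase of glycerol-3-phosphate, were among those that fell against sHFD (log2 -0.77 and -0.66, adjusted p = 0.00664 and 0.0197). The relatives and partners of Gpd1 gave differences near 0 in HFD vs ND: Gpd1l, its paralog, 0.12 (SE 0.17, adjusted p = 0.679), Gpd2, the mitochondrial dehydrogenase, -0.031 (SE 0.22, adjusted p = 0.941), and Gk, glycerol kinase, 0.20 (SE 0.29, adjusted p = 0.68).

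Of 17 tested genes of cAMP and natriuretic control of lipolysis, 1 fell in HFD vs ND, Npr1, the receptor of the atrial and B-type natriuretic peptides (log2 -0.63, SE 0.19, limma adjusted p = 0.0471), and the list's median was -0.045. In HFD vs sHFD 2 rose and 2 fell, with a median of -0.12. The genes that fell were Prkaca, the catalytic subunit of protein kinase A, and Adcy5, an adenylyl cyclase (log2 -0.67 and -0.69, adjusted p = 0.013 and 0.0164).

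Of 17 tested PPAR and related regulators, 1 rose and 1 fell in HFD vs ND (list median -0.14), and 2 rose and 7 fell in HFD vs sHFD (list median -0.42). Ppara, the receptor that drives fatty acid genes in the heart, was at 4.70, 4.20 and 4.63 TPM in the HFD libraries, against 2.30, 7.42 and 4.37 TPM in the ND libraries (log2 0.05, SE 0.28, limma adjusted p = 0.917). The sHFD libraries were higher, at 9.76, 9.66 and 9.18 TPM, and Ppara fell in HFD vs sHFD (log2 -0.94, SE 0.28, adjusted p = 0.0217). Esrra and Esrrb, oestrogen-related receptors, fell in HFD vs sHFD too (log2 -0.89 and -1.41, adjusted p = 0.00514 and 0.00331). The gene that rose in HFD vs ND was Cebpb, a transcription factor of inflammation and fat cell formation (log2 1.31, SE 0.33, adjusted p = 0.0271). Of 23 tested other PPAR-responsive genes, 9 fell and 0 rose in HFD vs ND and 17 fell and 0 rose in HFD vs sHFD, with list medians of -0.74 and -1.10. Among them were Mlycd and Cpt2 of fatty acid oxidation (log2 -1.76 and -1.75 in HFD vs sHFD, adjusted p = 0.00123 and 0.00148). Pdk4, another PPAR target, had a difference of -0.28 in HFD vs ND (SE 0.31, adjusted p = 0.581).

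**Figure D4:**
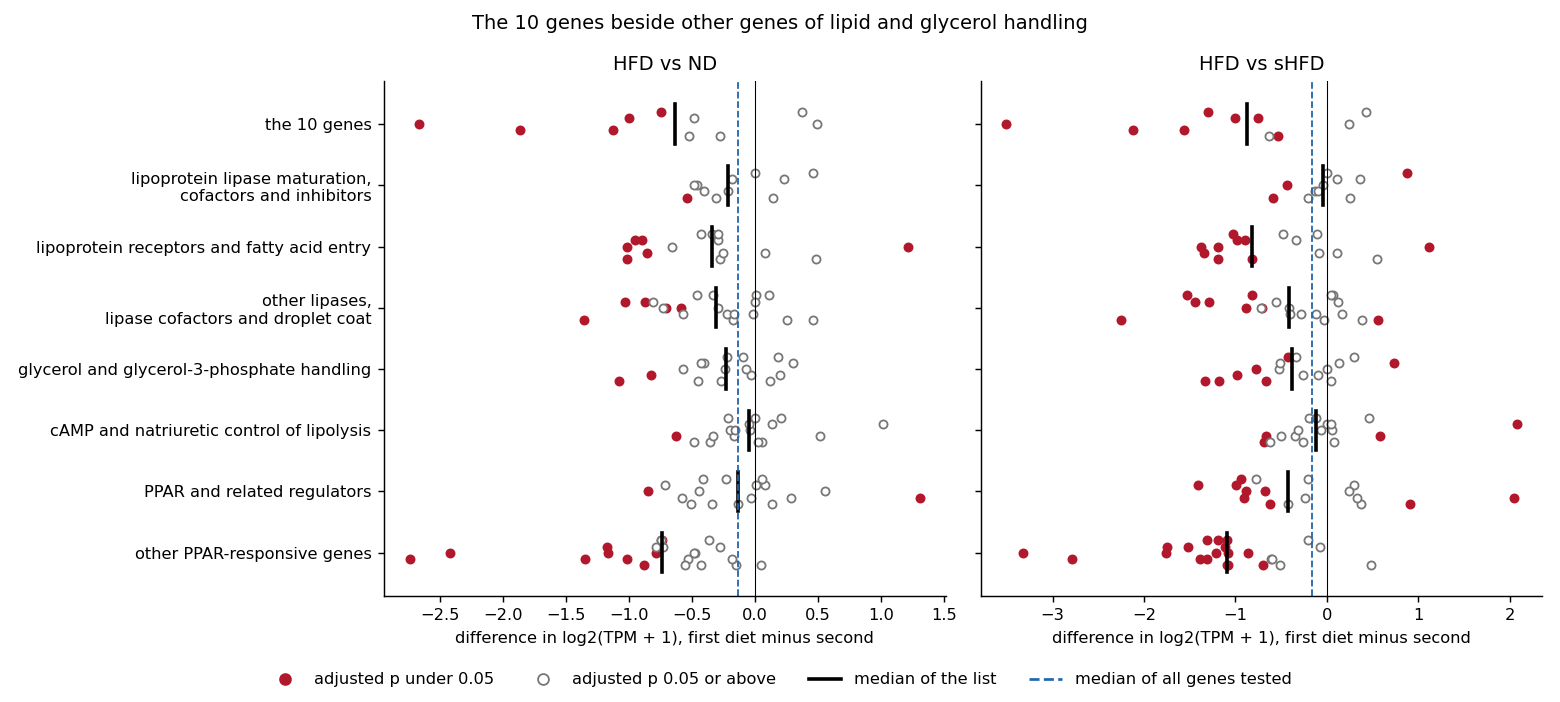
Difference in log2(TPM + 1) (x axis, first diet minus second) for the 10 genes and 7 lists of related genes (y axis), with HFD vs ND at left and HFD vs sHFD at right. Each point is a gene, red where its adjusted p was under 0.05; black bars are list medians and the dashed line the median of all genes tested (-0.14 and -0.16). The other PPAR-responsive genes have medians of -0.74 and -1.10, and the cAMP and natriuretic list lies near the dashed line.

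The genes whose levels followed each gene most closely over the 9 libraries were sought among 10943 genes averaging 5 TPM or more. For Aqp7 they were Tmem140, Nck2 and Arhgap39 (Pearson r = 0.993, 0.992 and 0.991), for Angptl4 Rassf5, Chst14 and Slc28a2 (0.993, 0.992 and 0.992), and for Lipe Rcor2, Zfp523 and Afap1l2 (0.992, 0.990 and 0.988). For Gpihbp1 they were Rras, Slc9a3r2 and Cd300lg (0.996, 0.989 and 0.939), and for Lpl Rpap3, Nt5c2 and Synpo2l (0.956, 0.955 and 0.926). For Gpd1 they were Polrmt, Nprl3 and Abcb6 (0.992, 0.988 and 0.986), and for G0s2 Thnsl2, Babam1 and Wbp1 (0.976, 0.966 and 0.961). For Abhd5 they were Mat2a, Ccnc and Fastkd1 (0.994, 0.988 and 0.987), for Mgll Folr2, Tmem173 and Sh3tc1 (0.981, 0.957 and 0.955), and for Pnpla2 Otud3, Nuak1 and Smad6 (0.945, 0.939 and 0.933). The values share the same 9 libraries, among which those of HFD stand apart for many genes, and are given as a description.

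Markers of the labelled cell type were abundant, with Myh6 at 5329 to 9631 TPM over the 9 libraries, and the isolates also held other cells, with the endothelial Cdh5 at 597 to 1086 TPM. The 14 cardiomyocyte markers summed to 30880 to 38706 TPM in HFD, 44160 to 59619 TPM in sHFD and 25553 to 44170 TPM in ND, so that HFD lay below sHFD without overlap. Of the 14, 3 fell (Myl2, Myl3 and Pln) and 1 rose (Myh7) in HFD vs sHFD, with a list median of -0.35, and in HFD vs ND 0 fell and 1 rose (Myh7). Lipe, G0s2, Gpd1 and Aqp7 are abundant in adipose tissue, and most fat-cell markers were near 0: Adipoq, the adipocyte hormone, reached at most 1.17 TPM, and Lep, Retn, Plin1, Cidec, Ucp1 and Adig, 6 of the 11 listed markers, stayed below 1 TPM in all libraries, with 7 of the 11 listed at 0 in some. The 11 together summed to 42.8 to 50.9 TPM in HFD, 59.4 to 74.6 TPM in sHFD and 52.4 to 62.4 TPM in ND, nearly all from Cidea and Pparg. Macrophages also make Lpl, and of 12 macrophage markers 10 fell and 0 rose in HFD vs ND, with summed levels of 278 to 333 TPM in HFD, 365 to 461 TPM in sHFD and 476 to 665 TPM in ND. Csf1r, the receptor that defines them, was among those that fell (log2 -1.41, limma adjusted p = 0.00867). Immediate-early and heat-shock genes, which respond to cell isolation, rose in 16 of 16 in HFD vs sHFD and in 1 of 16 in HFD vs ND. Of all 13655 genes tested, 1406 and 175 rose in these comparisons. The medians of the 16 were 1.79 and 0.80, beside -0.16 and -0.14 for all genes. The sum of the 16 was 7947 to 12479 TPM in HFD and 2360 to 2624 TPM in sHFD. In ND it was 10871, 2420 and 5510 TPM in replicates 1 to 3. ND replicate 1, the highest of ND in this sum, was the lowest ND library for Angptl4, Aqp7, G0s2, Lipe, Abhd5 and Lpl. It was the highest ND library for Mgll and Pnpla2, and lay between the other two for Gpihbp1 and Gpd1. Of 10 fibroblast markers 0 rose or fell in either comparison of HFD, while of 10 markers of smooth muscle and pericytes 4 fell and 1 rose in HFD vs ND and 7 fell and 1 rose in HFD vs sHFD, with list medians of -0.58 and -0.69. The part of other cells and of the isolation in the changes of the 10 genes was not tested.

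**Figure D5:**
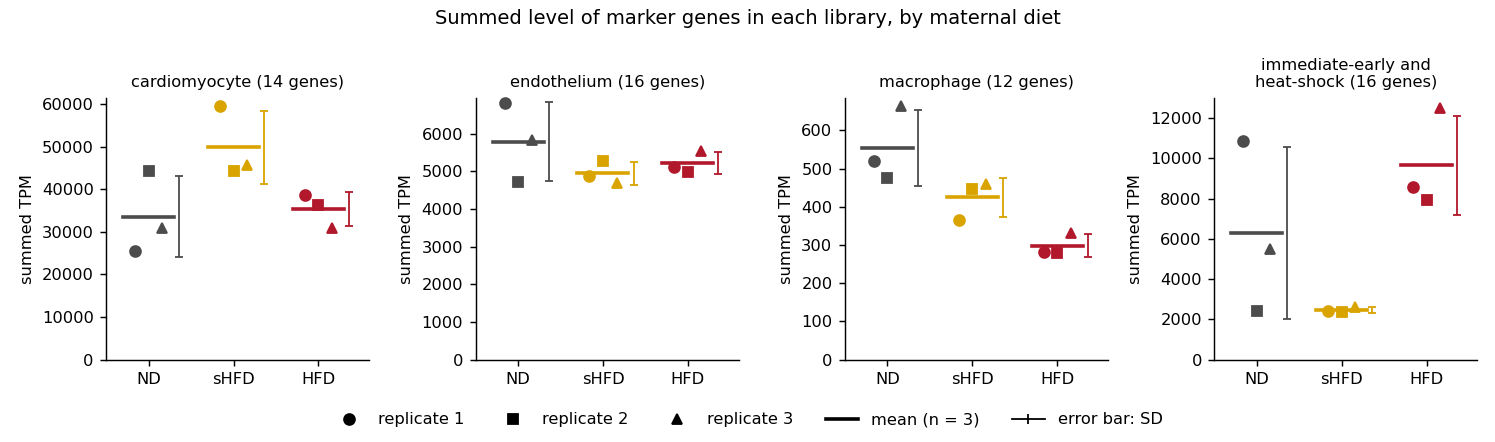
Summed TPM (y axis, from 0) of 14 cardiomyocyte, 16 endothelial, 12 macrophage and 16 immediate-early and heat-shock genes in the 9 libraries, by maternal diet (x axis); symbols are libraries, thick bars the mean of 3 and error bars the SD. The macrophage sum is lowest in HFD, at 278 to 333 TPM, and the immediate-early and heat-shock sum of ND replicate 1, 10871 TPM, lies within the HFD range.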

How the data were processed

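The authors deposited 1 table of TPM values for 18738 genes, with a column for each of 9 libraries; the submitters' processing notes list RSEM 1.3.1 and GRCm38 without saying what each was for. No aligner or annotation is named (not given in the sources used here). Per the labels' protocols, mRNA was isolated from total RNA. The column names CON, MID and HIGH were read as ND, sHFD and HFD, and their numbers as replicate numbers. Depth is unknown, since TPM keeps none, so no counting interval is given.

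The deposited values were transformed to log2(TPM + 1), which understates changes of low genes, and genes averaging 1 TPM or more entered the test. A linear model of the 3 diets was fitted to all 9 libraries with limma 3.58.1 (R 4.3.3, intensity trend, 6 residual degrees of freedom), two-sided, with Benjamini-Hochberg adjustment; adjusted p under 0.05 counted as passing. No exact permutation test was run, since 3 against 3 cannot reach a two-sided p under 0.1. The test was checked on simulated data in which each gene varied independently. That check does not cover deviations shared by the genes of a library.

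The 10 genes and the lists were chosen with earlier results of these data known. From each list the 4 genes with the smallest p in any comparison and 12 further genes chosen by name could be named; 1 of these, Gyk, was not matched, and 1 list gene is not reported here. The genes most like each of the 10 were the 3 with the highest Pearson r. The lists share Cidea, Cidec, Plin1 and Pparg between pathway and adipocyte markers. Hilpda, and Erg, Sox18, Myh7, Myl2, Myl3 and Pln among the markers, were named after their values were seen. Alternatives covered the pseudocount, the filter, the scaling, the diets fitted, the variance trend, a replicate block and each library left out. Calls of single genes were followed through them for the 10 genes only, and not for the list and marker genes. Positions and promoters are from RefSeq GRCm38.p6, strands and overlapping genes from GENCODE on GRCm38.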

Additional observations from a re-analysis of the deposited data

How the results depend on the processing

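The count of the 10 genes past the threshold in HFD vs ND, 5, was 3 with a pseudocount of 5, with no filter on low values or with only the 2 diets compared, and 2 to 5 when a library was left out. In HFD vs sHFD it was 7, and 5 to 8 over all alternatives, and in sHFD vs ND it was 0 in each. Over all genes, 1484 in HFD vs ND became 763 with no filter, 456 with only the 2 diets compared and 31 to 3837 with a library left out (3837 without ND replicate 1, 31 without HFD replicate 2, 39 without ND replicate 3, 127 without HFD replicate 1, 626 without ND replicate 2, 875 without sHFD replicate 3). In HFD vs sHFD 4665 became 2693 to 5461 with a library left out (2693 without HFD replicate 2, 3050 and 3079 without sHFD replicates 1 and 3). In sHFD vs ND the count of 1 was 0 with a pseudocount of 0.1 or 5, with no filter, with a mean of at least 5 TPM and with the replicate block, 2 with only the 2 diets compared, and 0 to 358 with a library left out (358 without ND replicate 2). The cause was not tested.

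Of 180 values in each comparison (10 genes in 18 alternatives), 149 kept their direction and side of the threshold in HFD vs ND, 162 in HFD vs sHFD and 170 in sHFD vs ND. The direction turned in 10, all in sHFD vs ND, where none passed. These were G0s2 with a pseudocount of 5 (-0.012), median-ratio scaling (-0.0042), quantile normalization (-0.054) and without ND replicate 1 (-0.39), sHFD replicate 1 (-0.12) or sHFD replicate 3 (-0.034); Pnpla2 without ND replicate 1 (0.11) or sHFD replicate 3 (0.060); and Gpihbp1 without ND replicate 2 (-0.21) or sHFD replicate 1 (-0.067). With a library left out, the sHFD vs ND difference ran from -0.39 to 0.28 for G0s2, from -0.19 to 0.11 for Pnpla2 and from -0.21 to 0.30 for Gpihbp1.

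Same-numbered libraries of different diets deviated together in 4 of 9 pairs (r over 0.1, range -0.29 to 0.41), so the numbers were not taken to pair the samples. With the replicate block, 4 of the 10 genes passed in HFD vs ND (1686 of all genes) and 8 in HFD vs sHFD (4722 of all genes). G0s2 had an adjusted p of 0.0505 in the first and Gpihbp1 one of 0.0253 in the second, and the block changed no other call of the 10 genes. The depth behind these TPM values is unknown, which limits what can be said of low genes such as Gpd1.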
